A study of Mus musculus with 119 samples.

Results

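Serotonin acts through a family of membrane receptors, and 10 of their genes, Htr1a, Htr1b, Htr1d, Htr2a, Htr2c, Htr3a, Htr4, Htr5a, Htr6 and Htr7, were described here out of the 55291 genes counted. They were taken by name, with no use of their measured levels, and all 10 had counts in every brain region sampled. The question the libraries address is what repeated exposure to THC, the main psychoactive compound of cannabis, during adolescence leaves in the transcriptome of reward and cognition circuits. Female and male mice received 10 mg/kg of THC or its vehicle by daily intraperitoneal injection from postnatal day 28 to 48, that is 21 injections, and were tested for behavior from 2 weeks after the last one. RNA was then sequenced from the prefrontal cortex (PFC), the dorsal striatum (DMS), the nucleus accumbens (NAc), the amygdala (Amy) and the ventral tegmental area (VTA). The 5 regions, 2 sexes and 2 treatments gave 20 groups of 6 libraries each, except for 5 libraries of the male VTA with vehicle, and so 119 libraries in all. The labelled age of all mice is 11 weeks, and no genotype beyond the strain is labelled. The labels give the strain as C57BL/6J and the dorsal striatal samples as dorsolateral, whereas the methods give C57BL/6NCrl and dorsal medial striatum. The labels do not tie libraries to mice, so that tissue of the same mouse in several regions was treated as independent and p-values measure the spread between libraries.

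Serotonin receptors differ in what they do to a neuron. Receptors of the Htr1 and Htr5 families couple to Gi proteins and lower excitability and transmitter release, those of the Htr2 family couple to Gq and raise calcium, and Htr4, Htr6 and Htr7 couple to Gs and raise cyclic AMP. Htr3a encodes a subunit of the only member of the family that is an ion channel. The ligand comes almost entirely from neurons of the raphe nuclei, whose axons reach all 5 regions.

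The coupled receptors share a short stretch at the end of the third transmembrane segment, where an aspartate, an arginine and a tyrosine stand side by side. The stretch is shown because it makes the members' kinship, and the limits of telling their reads apart, visible. Each sequence below has 51 bases of coding exon on the gene's own strand, from the GENCODE vM21 annotation of GRCm38, with the codons of those 3 residues in capitals. The Htr1a stretch lies at chr13:105444632-105444682 on the plus strand, that of Htr1b at chr9:81632097-81632147 on the minus strand and that of Htr1d at chr4:136442837-136442887 on the plus strand. Htr2a has it at chr14:74645071-74645121 and Htr2c at chrX:147169653-147169703, both on the plus strand. For Htr5a it is at chr5:27842842-27842892 on the plus strand, for Htr6 at chr4:139074363-139074413 on the minus strand, and for Htr7, on the minus strand of chromosome 19, it runs across an exon junction.
Htr1a: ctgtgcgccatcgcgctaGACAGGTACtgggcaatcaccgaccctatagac
Htr1b: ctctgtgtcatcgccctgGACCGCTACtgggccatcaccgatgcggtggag
Htr1d: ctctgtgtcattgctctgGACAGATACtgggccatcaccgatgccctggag
Htr5a: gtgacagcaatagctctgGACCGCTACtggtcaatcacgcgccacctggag
Htr2a: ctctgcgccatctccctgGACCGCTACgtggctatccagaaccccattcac
Htr2c: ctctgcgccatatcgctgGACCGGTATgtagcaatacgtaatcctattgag
Htr6: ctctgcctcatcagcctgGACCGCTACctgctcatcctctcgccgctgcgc
Htr7: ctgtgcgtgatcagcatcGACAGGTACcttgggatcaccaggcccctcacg
Htr4, which is coupled as well, is not shown or compared. Among the 8 genes shown Htr1b and Htr1d were the most alike pair, with 45 of 51 bases the same (88.2%), followed by Htr2a and Htr2c with 38 (74.5%). Htr5a and Htr6 were the least alike, with 23 (45.1%). Even so, no pair among the 45 pairs of members shared a stretch of 100 bases, the length of a read, anywhere in their transcripts. Only Htr2a and Htr2c shared any stretch of 25 bases. The transcript of Htr2c is also the one known to be edited from adenosine to inosine just after these codons, and the capitals in the same stretch mark the run of 5 codons that holds the edited adenosines, not all of which contain one.
Htr2c: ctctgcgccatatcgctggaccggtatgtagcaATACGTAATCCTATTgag
Editing cannot be read from a table of counts per gene and was not measured here.

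Depth ranged from 3090998 to 77042133 estimated reads a library, with a median of 22092612. The shallowest was a male VTA library with vehicle, and the widest spreads were in the Amy and VTA. Labelled sex matched Xist and Y-linked genes in 59 of 60 female and 58 of 59 male libraries. The exceptions were the Amy libraries FTL_344, labelled female with THC, and FTL_356, labelled male with THC, and leaving out either or both changed no call of a member in the comparisons that hold them, although it moved the adjusted p of Htr7 given below. Levels are given as CPM, a gene's count relative to the total of its library, scaled across all 119 libraries by the trimmed mean of M values (TMM). Differences are log2 fold changes from the edgeR quasi-likelihood test, with their standard errors (SE) and a false discovery rate (FDR) over all genes tested. The call used throughout needs both an FDR below 0.05 and a log2 fold change of 0.4 or more in either direction.

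The 10 genes divided the brain regions among them. The PFC was highest for Htr2a, Htr1a and Htr5a, the DMS for Htr1b and Htr1d, the NAc for Htr2c and Htr4, and the Amy for Htr3a, while Htr6 was about equally high in the DMS and NAc and Htr7 in the Amy and VTA. Over the 10 pairs of regions, 87 of 100 member tests were called. The background in those pairs is itself high, because regions differ in many genes. All 10 members were called between DMS and PFC, where 50.8% of 18932 genes were called, between NAc and PFC (47.1%), Amy and PFC (37.7%), VTA and PFC (56.6%) and VTA and DMS (58.9%). There were 9 members called between Amy and DMS (44.9%) and between VTA and NAc (54.7%), 7 between VTA and Amy (46.3%), and 6 between NAc and DMS (33.5%) and between Amy and NAc (27.5%). The members' median absolute log2 fold change was 1.89 between DMS and PFC, against 0.43 over all genes, and 0.65 between Amy and NAc, against 0.23. PFC and DMS stand in one table of the deposit and NAc, Amy and VTA in the other, so that a difference between regions of different tables and a difference between the tables cannot be told apart. In whole tissue, too, fewer cells of a type and less RNA per cell cannot be told apart.

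**Figure D1:**
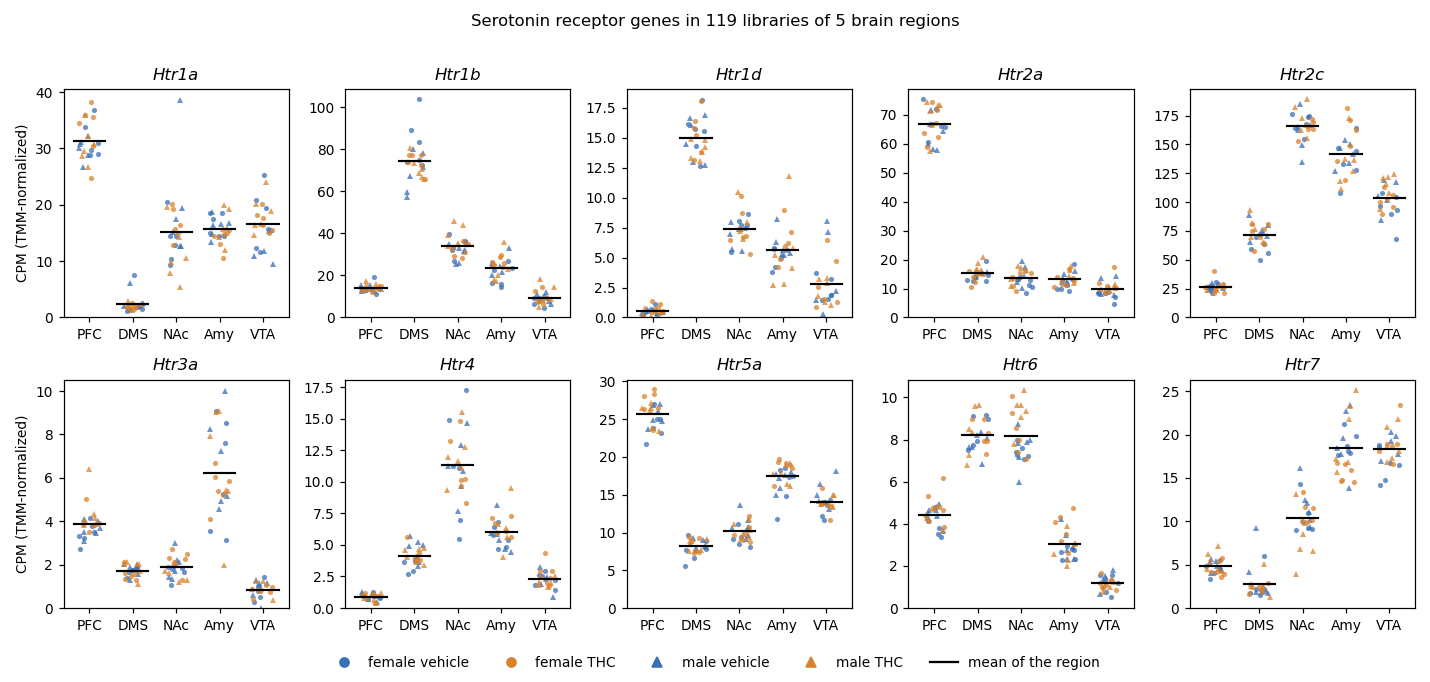
Each panel plots 1 receptor gene, with the 5 regions on the horizontal axis and TMM-normalized CPM on the vertical axis, which starts at 0 and differs between panels. Each point is 1 library, circles are females, triangles males, blue vehicle and orange THC, and the black line is the mean of the region. Htr2a in the PFC lies between 57.6 and 75.4 CPM, above every library of the other regions, while Htr2c spans 134.5 to 189.6 CPM in the NAc.

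Among the Gi-coupled receptors, Htr1a, the autoreceptor of serotonin neurons and a postsynaptic brake on cortical pyramidal cells (chr13:105443639-105448122), had 31.3 ± 3.46 CPM in the PFC (SD, n = 24), with libraries from 24.8 to 38.3. Its level was 16.6 ± 4.0 CPM in the VTA (n = 23), 15.6 ± 2.31 in the Amy and 15.2 ± 6.42 in the NAc (n = 24 each), and neighbors in that order did not differ beyond their spread (log2 fold change 0.04 to 0.11, edgeR FDR 0.357 to 0.714). The DMS was far lower at 2.35 ± 1.46 CPM (n = 24), a log2 fold change from the PFC of -3.74 (SE 0.127, FDR 4.88e-50). The DMS mean rests in part on 2 vehicle libraries, FTL_285 of a female at 7.51 CPM and FTL_301 of a male at 6.18 CPM. Library FTL_285 had a summed level of the 7 cortical projection neuron markers of 267.6 CPM and library FTL_301 the highest summed thalamic markers of the region. Without both the DMS mean was 1.94 ± 0.447 CPM (n = 22), and the part of those tissues in the result was not tested.

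Htr1b, the terminal autoreceptor that also sits on the axons of striatal projection neurons (chr9:81628291-81633828), had its peak where Htr1a had its trough. Its DMS level was 74.4 ± 9.54 CPM, ahead of 33.9 ± 5.07 in NAc, 23.7 ± 5.27 in Amy, 14.1 ± 1.77 in PFC and 9.38 ± 3.31 in VTA libraries. Every step of that order was called, from a log2 fold change of -0.52 between Amy and NAc (SE 0.0788, FDR 7.51e-09) to -1.13 between NAc and DMS (SE 0.0766, FDR 4.95e-26). Between the ends of the order, VTA against DMS, it was -2.97 (SE 0.0872, FDR 3.77e-56). An antisense gene, D430036J16Rik, overlaps Htr1b, and the library kit kept strand.

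Htr1d, its closest relative, followed the same order except at the bottom. The DMS had 15 ± 1.63 CPM, the NAc 7.39 ± 1.29, the Amy 5.66 ± 1.95 and the VTA 2.76 ± 2.04, and the gene was nearly silent in the PFC at 0.561 ± 0.327 CPM. The smallest PFC count of Htr1d was 2 reads. The step from NAc to Amy was under the fold threshold (log2 fold change -0.38, SE 0.136, FDR 0.0102). From PFC to DMS the log2 fold change was 4.78 (SE 0.178, FDR 6.81e-47), the largest of all 100 member tests between regions. Htr1d lies at chr4:136423524-136444398.

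Htr5a, an inhibitory receptor of the forebrain (chr5:27842149-27855088), ranked PFC 25.6 ± 1.86, Amy 17.4 ± 1.80, VTA 14.1 ± 1.44, NAc 10.2 ± 1.31 and DMS 8.18 ± 0.981 CPM. Amy and VTA differed by a log2 fold change of -0.30 (FDR 6.21e-10) and NAc and DMS by 0.31 (FDR 1.45e-09), both under the fold threshold, and the other steps of the order passed it.

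Of the Gq-coupled pair, Htr2a, the target of classical psychedelics (chr14:74640840-74709494), was a PFC gene in these data. Its 66.7 ± 5.89 CPM there compared with 15.2 ± 2.32 for DMS, 13.6 ± 2.87 for NAc, 13.2 ± 2.52 for Amy and 9.92 ± 2.64 for VTA. Each of those 4 regions was lower than the PFC by a called fold, from -2.13 for the DMS (SE 0.0686, FDR 7.93e-53) to -2.78 for the VTA (SE 0.0733, FDR 8.86e-61) on the log2 scale. DMS, NAc and Amy stayed within 0.21 of each other on that scale.

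Htr2c, the receptor known for its role in feeding and dopamine control (chrX:146962513-147197277), showed close to the reverse. The lowest level was the PFC's, at 26.5 ± 3.91 CPM, and above it stood DMS at 71.6 ± 10.3, VTA at 103 ± 13.7, Amy at 142 ± 19.4 and NAc at 166 ± 11.9. NAc against PFC gave a log2 fold change of 2.65 (SE 0.0541, FDR 4.96e-71). Only the step between NAc and Amy fell short of the fold threshold (-0.23, FDR 1.87e-05). Htr2c is also abundant in choroid plexus, and the 7 choroid plexus markers summed to 461 to 3612 CPM in 5 female Amy libraries and to 483 in 1 male one, against 20.6 to 32.1 in the others. Over the 24 Amy libraries Htr2c had r = 0.453 and rho = 0.337 with that sum. Without the 2 libraries farthest from its median r was 0.17 and rho 0.15, so that the relation over all 24 rests largely on libraries FTL_343 and FTL_344. In female libraries r was 0.59 and rho 0.566, and in male ones r was -0.0248 and rho -0.0839 (n = 12 each).

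The channel subunit gene Htr3a, a marker of a class of cortical interneurons (chr9:48899213-48911099), was low everywhere and highest in the Amy at 6.22 ± 2.12 CPM, with libraries from 1.98 to 10.0. PFC libraries had 3.88 ± 0.703 CPM, NAc 1.88 ± 0.488, DMS 1.72 ± 0.296 and VTA 0.850 ± 0.362. NAc and DMS did not differ beyond their spread (log2 fold change 0.13, SE 0.123, FDR 0.361). The shallowest VTA library, FTL_371, had 0 reads of it, which allows up to 0.971 CPM at that depth and covers counting error only. The other libraries all had reads of every member.

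Among the Gs-coupled receptors, Htr4, known for actions on memory and feeding and located on chromosome 18, ranked NAc 11.4 ± 2.83, Amy 6.06 ± 1.22, DMS 4.14 ± 0.803, VTA 2.31 ± 0.708 and PFC 0.913 ± 0.249 CPM. Every step was called, and NAc against PFC reached a log2 fold change of 3.63 (SE 0.109, FDR 2.9e-56). Htr6, a receptor concentrated in the striatum (chr4:139061108-139075570), had 8.20 ± 0.797 CPM in the DMS and 8.18 ± 1.11 in the NAc, which did not differ beyond their spread (log2 fold change -0.01, SE 0.0634, FDR 0.905). Below them came PFC at 4.43 ± 0.628, Amy at 3.05 ± 0.744 and VTA at 1.18 ± 0.339, each step called.

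Htr7, the third of the Gs-coupled genes and a receptor known for circadian and thalamic functions (chr19:35958734-36057507), was level between the Amy at 18.4 ± 3.13 and the VTA at 18.3 ± 2.09 CPM (log2 fold change 0.00, SE 0.0975, FDR 0.997). Next came NAc at 10.4 ± 2.59, PFC at 4.82 ± 0.889 and DMS at 2.77 ± 1.78 CPM. The 2 DMS libraries that stood out for Htr1a stood out here as well, FTL_285 at 6.02 and FTL_301 at 9.27 CPM, and without them the mean was 2.33 ± 0.863 (n = 22). Over all 24 DMS libraries Htr7 had r = 0.92 and rho = 0.723 with the summed thalamic markers, and r = 0.804 without the 2 farthest libraries. For Htr1a the same values were 0.847, 0.535 and 0.571. These points share library depth and dissection, and are given as a description.

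**Figure D2:**
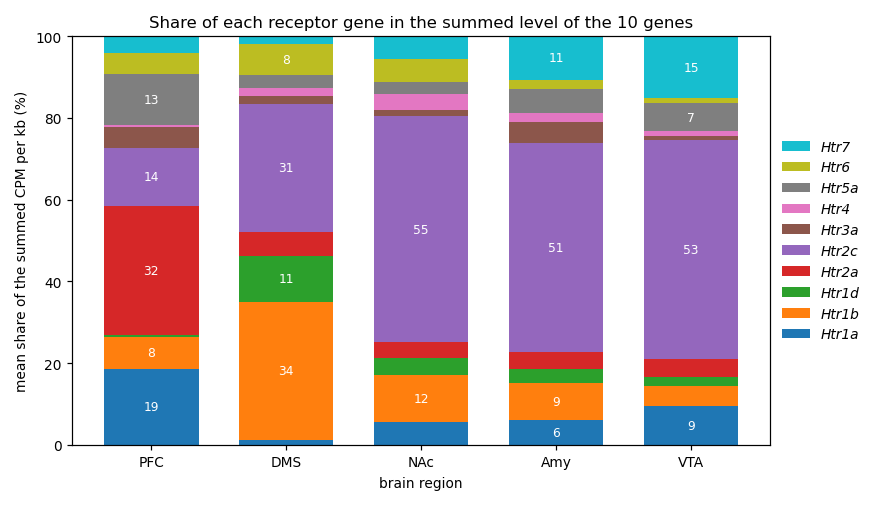
Stacked bars give, for each of the 5 regions, the mean share of each of the 10 receptor genes in their summed CPM per kilobase of the longest coding transcript, in percent from 0 to 100, with shares of 6% and more written in whole percent. Htr2a holds 31.5% in the PFC and Htr2c 55.2% in the NAc.

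To compare genes with each other, CPM was divided by the length of the longest coding transcript. On that scale the 10 genes summed to 61.7 ± 3.17 CPM per kilobase for NAc, 56.6 ± 4.64 for Amy, 46.4 ± 1.91 for DMS, 39.6 ± 4.57 for VTA and 37.8 ± 1.56 for PFC. In the PFC Htr2a held 31.5% of the sum, Htr1a 18.5%, Htr2c 14.3% and Htr5a 12.6%. By merged exons Htr2c held 8.10% there, below Htr5a (13.6%) and Htr1b (8.52%). The DMS was shared by Htr1b with 33.9% and Htr2c with 31.5% (40.5% and 19.8% by merged exons), with Htr1d at 11.1% and Htr1a at 1.13%. Htr2c held more than the other 9 together in the NAc (55.2%), Amy (51.0%) and VTA (53.5%). That statement depends on the length used, since the merged exons of Htr2c span 9328 bases and its longest coding transcript 4883. With merged exons its share was 39.8% for NAc, 38.5% for VTA and 36.1% for Amy. Behind it stood Htr1b in the NAc (11.6%) and Htr7 in the Amy (10.6%) and VTA (15.2%). A receptor's share of RNA says nothing of its protein, which for Htr1b in particular is carried to axon terminals in other regions.

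The genes that make, move and break down serotonin followed another map. Tph2, the enzyme that sets the rate of serotonin synthesis in neurons, had 7.15 ± 15.9 CPM in the VTA, with a median of 0.896 and libraries from 0.0588 to 70.5, and means of at most 0.773 in the other 4 regions. The serotonin transporter Slc6a4 had 4.58 ± 11.2 CPM in the VTA, but its median there was 0.126, 7 of the 23 libraries had no read and the highest had 49.6 CPM. Its means elsewhere were at most 0.129, so that the higher VTA mean rests on a few libraries. The 5 serotonergic neuron markers summed highest in 2 male VTA libraries with THC, FTL_375 and FTL_377, at 109 and 164 CPM. The enzymes and transporters that dopamine neurons also use were at 595 CPM (Ddc) and 428 CPM (Slc18a2) in the VTA. Of the degrading enzymes, Maoa had 34.8 to 70.5 CPM and Maob 21.9 to 34.6 CPM as regional means, both highest in the VTA. The uptake transporter Slc22a3 peaked in the DMS at 13.9 CPM and Slc29a4 in the VTA at 27.7 CPM. Among the other receptor genes, Htr1f had means of 1.10 to 5.36 CPM, Htr5b of 0.283 to 0.810, and Htr2b and Htr3b of at most 0.031 and 0.086, with no library above 5 and 6 reads.

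The comparison of THC with vehicle asked whether the receptor genes still differed weeks after the last injection. With edgeR no member was called in any of the 10 comparisons within a region and sex, over 99 member tests, Htr1d in the male PFC having been too low to test. The share of all genes called was itself 0% in 8 of them, namely the female PFC, NAc and VTA and all 5 male comparisons, with 0.0127% in the female DMS and 1.57% in the female Amy. At an unadjusted p under 0.05 there were 17 member tests, or 17.2%, against 8.15% of all gene tests, with 14 higher and 3 lower under THC. One test had an FDR under 0.05, that of Htr7 in the female Amy, with a fold change under the threshold. The DESeq2 Wald test called 2 members, Htr1b and Htr6, both in the female Amy.

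**Figure D3:**
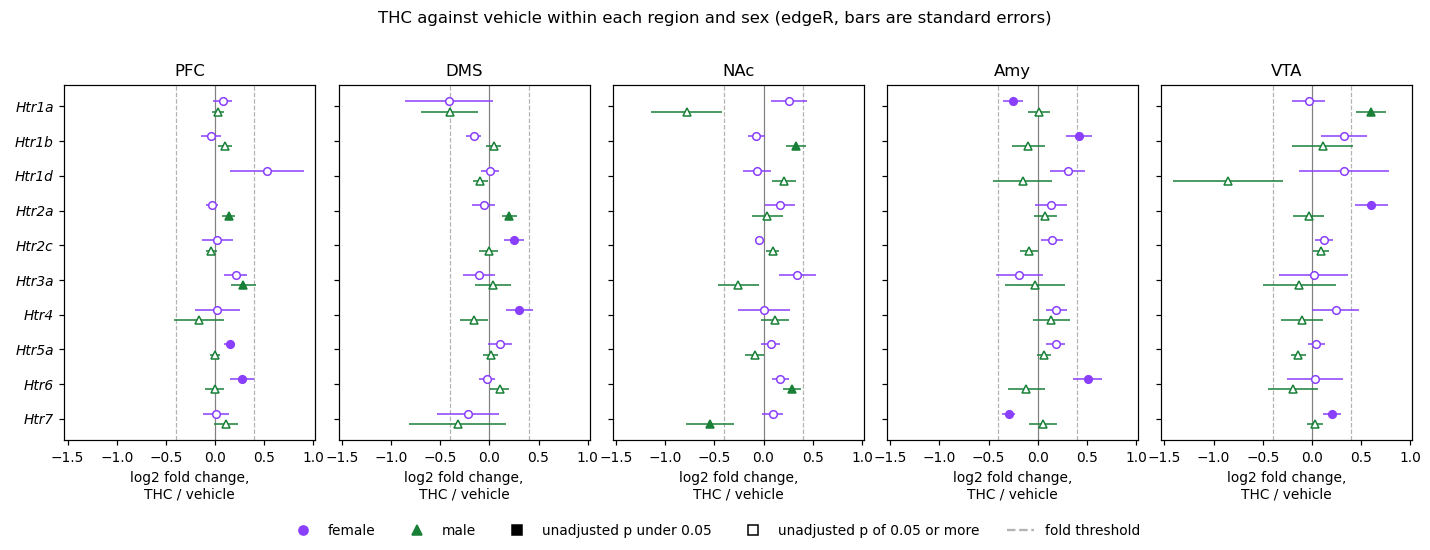
Each panel is 1 region and plots the log2 fold change of THC against vehicle on the horizontal axis for the 10 receptor genes, purple circles for females and green triangles for males, with bars of 1 SE. Filled symbols have an unadjusted p under 0.05 and dashed lines mark the fold threshold of 0.4. No symbol is a call, and those beyond a dashed line and filled are Htr1b and Htr6 in the female Amy, Htr2a in the female VTA, Htr1a in the male VTA and Htr7 in the male NAc.

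In the female Amy, Htr7 was lower with THC, and Htr1b and Htr6 had higher means. Htr7 ranged from 17.6 to 21.3 CPM in the 6 vehicle libraries (median 18.4) and from 14.5 to 16.7 in the 6 THC libraries (median 15.3). The groups did not overlap, which was so for 1.28% of 17003 genes in the lower direction. Its log2 fold change was -0.30 (SE 0.0646, FDR 0.0317), where 2.72% of all genes had an FDR under 0.05 at any fold. Without library FTL_344, whose sex genes go against its label, the log2 fold change of Htr7 was -0.28 (SE 0.0696, FDR 0.067).

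Htr6 ranged from 2.28 to 2.96 CPM in vehicle libraries (median 2.71), against 2.61 to 4.75 in THC libraries (median 3.80), and 5 of the 6 THC libraries lay above all those with vehicle. The log2 fold change was 0.51 (SE 0.144, FDR 0.0773). Htr1b ranged from 14.3 to 26.7 CPM in vehicle libraries (median 19.5), against 24.1 to 29.9 in THC libraries (median 26.2), with overlap, and a log2 fold change of 0.42 (SE 0.134, FDR 0.103). DESeq2 gave these 2 an FDR of 0.0168 and 0.0427, and called 3.39% of the genes it tested. Without the 5 female libraries that held choroid plexus markers, edgeR called Htr6 as well (log2 fold change 0.58, FDR 0.0375). In that fit the fold change of Htr7 was smaller and its FDR was above 0.05. The 5 libraries left out were FTL_335, FTL_337 and FTL_338 with vehicle, and FTL_343 and FTL_344 with THC. Htr1a ranged from 14.4 to 18.6 CPM in vehicle libraries (median 16.2), against 10.5 to 15.5 in THC libraries (median 14.6), a log2 fold change of -0.25 (SE 0.103, FDR 0.179). The other 6 members had an unadjusted p above 0.05.

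The 2 female Amy groups also differed in markers of neighboring tissue. The 8 hypothalamic and medial amygdala markers summed to 81.3 to 151.1 CPM with vehicle (median 127.0) and to 53.3 to 81.4 with THC (median 65.7). All 8 had lower means with THC, and Calcr, Cartpt and Lhx6 were called. Not all are particular to that tissue. As regional means Lhx6 had 34.9 CPM in the Amy and 35.0 in the NAc, and Cartpt 22.5 and 73.1. Calcr and Nkx2-1 were also higher in the NAc, and Sim1, Otp, Esr1 and Trh in the Amy. The 7 cortical and basolateral projection neuron markers summed to 513.3 to 758.2 CPM with vehicle and 819.3 to 1173.7 with THC, all 7 higher, with Slc17a7, Tbr1, Neurod6 and Rspo2 called. None of these markers was at 0 as a mean of the region. The medium spiny neuron markers summed to 474.6 to 1039.2 CPM with vehicle and 791.6 to 1332.3 with THC, with overlap.

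Over all 24 Amy libraries Htr1b, Htr6, Htr7 and Htr1a varied with the hypothalamic and medial amygdala sum. For Htr1b, Htr6 and Htr7 this held in males as well as in females, while for Htr1a it was weak in males (r = 0.423, rho = 0.441). Htr1b had r = -0.909 and rho = -0.944 with it, with r = -0.957 in the 12 female and r = -0.901 in the 12 male libraries. For Htr6 the values were r = -0.826 and rho = -0.808, with r = -0.836 in females and -0.813 in males. Htr7 had r = 0.71 and rho = 0.733, with 0.759 and 0.727, and Htr1a r = 0.608 and rho = 0.68, with 0.77 and 0.423. Without the 2 libraries farthest from the median of the sum, r was -0.899 for Htr1b, -0.836 for Htr6, 0.697 for Htr7 and 0.557 for Htr1a. In the male Amy the sum did not separate the treatments (52.5 to 114 CPM with vehicle, 53.9 to 146 with THC). No member there had an unadjusted p under 0.05, where only 1.84% of all genes did. With the difference between the cortical and the hypothalamic markers as a covariate in the female Amy, the log2 fold change of Htr1b was -0.22, that of Htr6 -0.33 and that of Htr1a 0.25, each with its sign turned. That of Htr7 stayed at -0.30, with a wider SE of 0.156 and an FDR of 0.95. That marker score and THC were themselves correlated in the female Amy at r = 0.894, so that this fit cannot tell THC from the score. The turned signs are given as values only. The score leaves out the medium spiny neuron markers, whose Amy sums were highest in the male libraries FTL_352 with THC (2674 CPM) and FTL_346 with vehicle (1737 CPM). These libraries also held the highest Amy values of Htr1b, 35.8 and 33.2 CPM. The part of that tissue in the members' values was not tested.

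**Figure D4:**
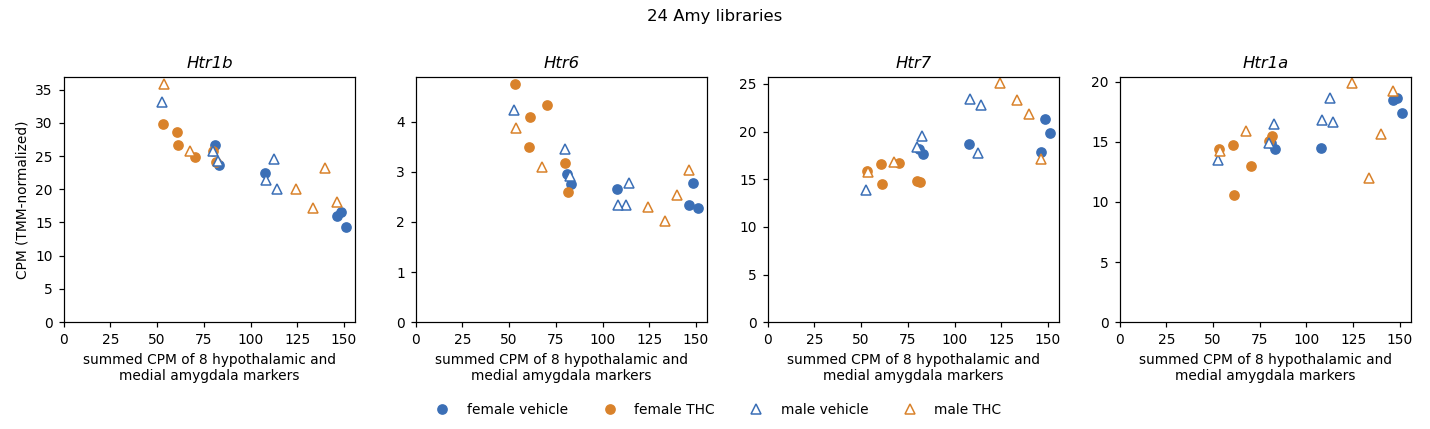
Each panel plots TMM-normalized CPM of 1 receptor gene against the summed CPM of 8 hypothalamic and medial amygdala markers in the 24 Amy libraries, filled circles for females, open triangles for males, blue for vehicle and orange for THC. Htr1b runs from 35.8 CPM at the low end of the sum to 14.3 at the high end, and the female THC libraries lie at sums of 53.3 to 81.4.

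In the male NAc, Htr1b and Htr6 had higher means with THC, and Htr7 and Htr1a lower ones. Htr1b ranged from 25.6 to 34.9 CPM in vehicle libraries (median 31.9), against 31.3 to 45.7 in THC libraries (median 37.4), a log2 fold change of 0.33 (SE 0.104, FDR 0.21). Htr6 ranged from 6.00 to 8.75 (median 7.88) and from 7.77 to 10.4 (median 9.48), a log2 fold change of 0.29 (SE 0.0912, FDR 0.21). Both pairs of groups overlapped.

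Htr7 went the other way, from 9.35 to 16.1 CPM in vehicle libraries (median 11.6), against 3.89 to 13.1 in THC libraries (median 7.69), a log2 fold change of -0.54 (SE 0.242, FDR 0.29). Htr1a ranged from 12.6 to 38.7 CPM in vehicle libraries (median 16.3), against 5.47 to 19.5 in THC libraries (median 10.2), and its log2 fold change of -0.78 (SE 0.36, FDR 0.308) was -0.45 without the vehicle library FTL_325, which held the highest value. Here 16.7% of all genes had an unadjusted p under 0.05 and none was called.

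The 8 medium spiny neuron markers summed to 2531 to 3868 CPM in the male NAc with vehicle and 3453 to 5255 with THC, with 0 of the 8 called. In the 24 NAc libraries Htr7 had r = -0.808 and rho = -0.643 with that sum, Htr1b r = 0.803 and rho = 0.607, and Htr6 r = 0.683 and rho = 0.504. Without the farthest libraries, FTL_325 and FTL_331, these r values were -0.695, 0.695 and 0.529. Htr1a had r = -0.648 with all libraries and -0.292 without those 2, so that its relation rests on them. Over the 12 female and the 12 male libraries r was -0.568 and -0.877 for Htr7, 0.519 and 0.91 for Htr1b, 0.328 and 0.842 for Htr6, and 0.124 and -0.859 for Htr1a, and the difference between the sexes was not tested. The part of tissue makeup in the male NAc values was not tested.

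**Figure D5:**
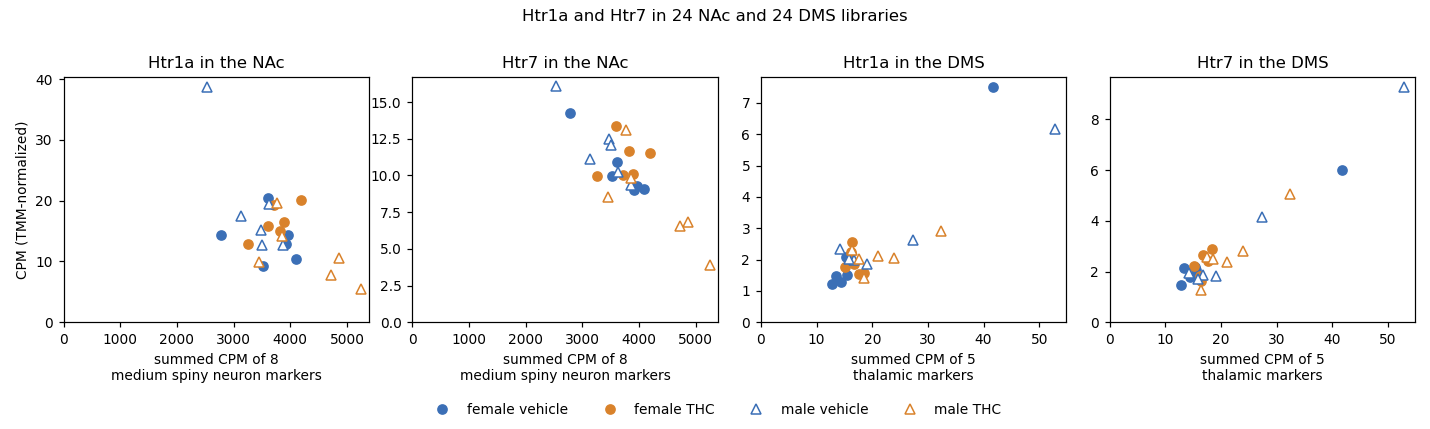
The left panels plot CPM of Htr1a and Htr7 against the summed CPM of 8 medium spiny neuron markers in 24 NAc libraries, and the right panels against that of 5 thalamic markers in 24 DMS libraries, with filled circles for females, open triangles for males, blue for vehicle and orange for THC. The male vehicle library at 38.7 CPM of Htr1a stands alone in the NAc, and the 2 vehicle libraries at 7.51 and 6.18 CPM in the DMS.

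In the VTA, Htr2a and Htr7 in females and Htr1a in males had higher means with THC at an unadjusted p under 0.05. Htr2a in females ranged from 4.53 to 8.75 CPM in vehicle libraries (median 8.38), against 9.46 to 17.4 in THC libraries (median 10.5), with no overlap between the groups, as for 0.159% of 15747 genes in the higher direction. The log2 fold change was 0.60 (SE 0.17, unadjusted p 0.00266, FDR 0.512). The highest value belonged to library FTL_363, whose hypothalamic and medial amygdala markers summed to 1104 CPM. Without that library the log2 fold change was 0.45 (FDR 0.83). In male VTA libraries Htr2a had means of 10.6 CPM with vehicle and 9.96 with THC. Htr7 in females ranged from 14.2 to 18.8 CPM in vehicle libraries (median 16.6), against 16.6 to 23.4 in THC libraries (median 18.8), a log2 fold change of 0.20 (SE 0.0914, FDR 0.531).

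Marker sums also differed across the female VTA groups. The dopaminergic neuron markers summed to 2563 to 3637 CPM with vehicle and 1087 to 3647 with THC. Library FTL_363 was the lowest at 1087, followed by library FTL_368 with THC at 1522. The hypothalamic and medial amygdala sum was 20.2 to 74.2 CPM with vehicle and 52.9 to 1104 with THC, and 4 of the 6 THC libraries lay above all those with vehicle. Cartpt (66.5 CPM) made up most of that sum as a mean of the VTA, where the other markers of the list had means of 8.79 CPM or less. The sum is thus mostly 1 gene there and does not by itself name a tissue. Astrocyte markers summed to 1495 to 2233 and 767 to 2190 CPM, microglial markers to 162 to 204 and 121 to 178, and serotonergic neuron markers to 46.9 to 62.0 and 29.1 to 48.7. The last sum was mostly Lmx1b (32.7 CPM) and Gata3 (10.3 CPM) as means of the region. Tph2 and Slc6a4 had VTA medians of only 0.896 and 0.126 CPM, so that a lower sum need not mean fewer serotonergic neurons. No gene was called in this comparison, and the part of tissue makeup in the values of Htr2a and Htr7 was not tested.

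Htr1a in the male VTA was 15.3, 9.39, 15.5, 11.8 and 10.9 CPM in the 5 vehicle libraries and ranged from 14.6 to 24 with THC (median 17.7). The value of 15.5 belongs to FTL_371, the shallowest library. The paper's methods say that a male VTA sample, which they do not name, was removed as an outlier, and all 11 libraries were kept here. Of the 6 THC libraries, 5 lay above all those with vehicle, and the log2 fold change was 0.60 (SE 0.154, unadjusted p 0.00179, FDR 0.819). Female VTA means of Htr1a were 17.5 ± 5.29 CPM with vehicle and 17.2 ± 1.90 with THC. Over the 23 VTA libraries Htr1a had r = 0.163 and rho = -0.0198 with the summed serotonergic neuron markers, and in the 11 male libraries r = 0.394 and rho = 0.109. Lmx1b (32.7 CPM) and Gata3 (10.3 CPM) made up most of that sum as means of the region.

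In the PFC and DMS no member reached the fold threshold with an unadjusted p under 0.05. The tests with an unadjusted p under 0.05 were Htr5a (0.15) and Htr6 (0.27) in the female PFC, Htr2a (0.14) and Htr3a (0.28) in the male PFC, Htr2c (0.25) and Htr4 (0.31) in the female DMS and Htr2a (0.20) in the male DMS, as log2 fold changes. All had an FDR of 0.486 or more. Htr2a, which held the largest share in the PFC, had means of 67.9 ± 5.16 CPM with vehicle and 66.4 ± 5.94 with THC in females, and 63.2 ± 5.42 and 69.5 ± 6.52 in males (n = 6 each).

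Whether the treatment difference itself differed between the sexes was tested by an interaction in each region. No member was called among 50 tests with edgeR, or with DESeq2, and edgeR called 0% of all genes in the PFC, DMS, NAc and VTA and 0.0059% in the Amy. An unadjusted p under 0.05 was seen for 10 member tests, or 20%, against 8.97% of all gene tests. By region there were 4 in the NAc (11.0% of all genes), 3 in the Amy (15.8%), 2 in the VTA (6.16%) and 1 in the DMS (5.9%). In the Amy these were Htr6 (log2 difference of male minus female fold change -0.62, SE 0.238, FDR 0.26), Htr1b (-0.51, FDR 0.293) and Htr7 (0.35, FDR 0.306). With sex as a covariate and both sexes in a fit, THC gave 0 calls among 50 member tests with either tool. The share of all genes that edgeR called was 0% in each of the 5 regions. Of the 50 edgeR member tests, 3 had an unadjusted p under 0.05, or 6%, below the 7.4% of all gene tests. The smallest p of those 3 was that of Htr6 in the NAc, with a log2 fold change of 0.23 (SE 0.0624, unadjusted p 0.00101, FDR 0.315). In that NAc fit 10.2% of all genes had an unadjusted p under 0.05.

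Levels were also compared between males and females over both treatments. No member was called between the sexes by either tool in 50 tests, where with edgeR the share of all genes called was 2.64% for the DMS, 0.25% for the NAc, 0.237% for the PFC, 0.113% for the VTA and 0.0118% for the Amy. An unadjusted p under 0.05 was seen in 8 tests, or 16%, against 14.7% of all gene tests. Htr2a in the DMS was closest to a call, higher in males by 0.22 on the log2 scale (SE 0.0747, FDR 0.0596). Htr2c, the X-linked member, had log2 fold changes of male over female of 0.17 in the DMS (FDR 0.149) and 0.17 in the VTA (FDR 0.573).

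Downstream of the receptors, lists of signaling genes were read in the same comparisons, and calls were seen in the female Amy only. There 1.57% of all genes were called, against 0.0127% in the female DMS and 0% in each of the other comparisons of THC with vehicle. A call outside the female Amy was thus hardly possible for any list. Among the Gq signaling genes reported here, Itpr1, the calcium channel of internal stores (log2 fold change 0.54, FDR 0.0462), and the protein kinase C gene Prkcb (0.70, FDR 0.0367) were called higher with THC. Of 12 genes of Gs signaling, the adenylyl cyclase genes Adcy1 (0.74, FDR 0.0319) and Adcy8 (-0.44, FDR 0.0373) were called in opposite directions. Among 12 receptor partners, Grm2, the glutamate receptor said to pair with Htr2a, was called (0.55, FDR 0.0383). No call was made among 8 genes of Gi signaling, the 7 tested of serotonin supply and the 2 tested other receptors. These calls stand beside the marker differences of the female Amy given above, and the part of tissue makeup in them was not tested.

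Other genes traced the members' maps closely over the 119 libraries, as Pearson's r of log2 CPM. Differences between regions enter these values, and libraries of a region share its dissection. For Htr1b the 3 most alike were Cyld (0.973), Pde7b (0.966) and Stk26 (0.963). For Htr6 they were Phactr1 (0.972), Chst15 (0.968) and Mctp1 (0.964), and for Htr5a Napb (0.973), Sh3gl2 (0.972) and Rtn3 (0.968). Htr7 was closest to Nrip2 (0.97), Gpr165 (0.965) and Tmem130 (0.964), and Htr1a to Sphkap (0.967), Slc8a1 (0.955) and Tmem200a (0.953). Htr2c went with Zcchc12 (0.961), Rab27a (0.955) and Fchsd2 (0.948), and Htr2a with Ptpn4 (0.95), Snx13 (0.949) and Ppm1k (0.948). Htr1d was most like Tacr1 (0.941), Scube3 (0.939) and Tbc1d16 (0.938), and Htr4 like Gad2 (0.941), Gm10710 (0.937) and Fndc9 (0.928). Htr3a had the loosest companions, Unc5a (0.867), Mirt1 (0.862) and Bnip5 (0.856).

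Once each region's mean was taken out, the likeness that remained was within regions. Htr7 kept the highest values, with Camk2d (0.785), Gng2 (0.782) and Gnas (0.769). Htr1b followed with Adam23 (0.755), Elmod1 (0.75) and Camkk1 (0.734), Htr1a with Sphkap (0.723), Ppm1e (0.698) and Trhde (0.697), and Htr1d with Kcnab1 (0.69), Gad2 (0.62) and Slc32a1 (0.62). Sphkap was the only gene among the 3 nearest of a member by both measures. Values for the others were lower. Htr3a had Ccnjl (0.578), Pcdha4 (0.577) and A730063M14Rik (0.555), Htr5a had Syt1 (0.569), Prkaa2 (0.56) and Prune2 (0.555), and Htr2a had Purb (0.533), Oip5os1 (0.502) and Gpr22 (0.496). Htr6 had Snph (0.524), Pcnx2 (0.516) and Arhgap32 (0.513), Htr2c had Dpp10 (0.509), Zfp941 (0.489) and Slc4a7 (0.474), and Htr4 had Inpp4b (0.505), Entpd3 (0.469) and Gm44240 (0.419).

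Within regions the members also moved with each other. In the NAc Htr1a and Htr7 had r = 0.808 and rho = 0.724 over 24 libraries, and Htr1b and Htr7 r = -0.807 and rho = -0.723. In the Amy Htr1b and Htr1d had r = 0.813 and rho = 0.817. These are the same libraries whose tissue markers varied, and the values are descriptions without a test.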

How the data were processed

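Bulk poly(A) RNA of 119 mouse brain libraries was sequenced as 2 x 100 base pairs from a stranded kit. The authors deposited expected counts per gene in 2 tables, PFC and DMS in one and NAc, Amy and VTA in the other. The submitters' processing notes name cutadapt 2.9, STAR 2.7.3a, RSEM 1.3.1 and the mm10 build, and the annotation release was not given in the sources used here. RSEM divides reads that fit several genes between them, so its counts are estimates. They were rounded to whole numbers. All 119 columns carry a library number that matches 1 label, and 0 columns of values were left unused.

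Groups came from the labels. edgeR 4.0.16 in R 4.3.3 was used with filterByExpr, TMM and robust quasi-likelihood fits, with Benjamini-Hochberg adjustment over all genes tested. THC was compared with vehicle within each region and sex on those libraries alone. Interaction, treatment with sex as a covariate, and sex used all libraries of a region, and region pairs came from a fit of all 20 groups. Log2 CPM used a prior count of 2. The scripts were tested on simulated data. Named genes were the 10 members, the other receptor genes, the supply genes, every listed gene called in a comparison of THC with vehicle or an interaction, and the 3 genes of highest r with each member by either measure. The members, the lists and these tests were chosen with earlier results of these data known. One result among the listed genes is not reported here.

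Alternatives were DESeq2 1.42.0, its size factors in edgeR, no filter on low counts, all groups of a region in a fit, a marker score as covariate, vehicle libraries only, each table alone, unscaled CPM, Spearman's rho and leaving out libraries. Leaving out libraries FTL_285 and FTL_301, library FTL_363, or 5 Amy libraries with choroid plexus markers was added after seeing the data, as were shares by merged exon length. Pairs of libraries from the same mouse could not be modeled.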

Additional observations from a re-analysis of the deposited data

Results flagged for a closer look

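Dixon's test at its 95% level was applied to 200 sets of 5 or 6 values, 1 set for each member and group of libraries. It set a single library apart 21 times. Chance alone gives about 1 in 20 for independent sets, but these sets share libraries, and some libraries stood apart for several members. Libraries FTL_285 and FTL_301, both DMS with vehicle, account for 5 of the 21. Library FTL_285 (female) had 7.51 CPM of Htr1a against 1.22 to 2.09 in the others, 19.4 of Htr2a against 12.6 to 14.8, and 6.02 of Htr7 against 1.47 to 2.18. Library FTL_301 (male) had 6.18 CPM of Htr1a against 1.86 to 2.63 and 9.27 of Htr7 against 1.71 to 4.15. These are the libraries with high cortical or thalamic markers in that region.

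In the NAc, Htr1a was 38.7 CPM in the male vehicle library FTL_325 against 12.6 to 19.5 in the others, and Htr1d was 10.5 in the male THC library FTL_331 against 6.55 to 7.97. The female vehicle library FTL_313 was lowest in Htr1d at 5.44 (others 7.47 to 8.66) and in Htr3a at 1.06 (1.67 to 1.92), and highest in Htr7 at 14.3 (9.02 to 10.9). In the VTA, the female THC library FTL_363 was highest in Htr2a at 17.4 (9.46 to 11.7) and in Htr7 at 23.4 (16.6 to 19.0), and the female vehicle library FTL_358 was lowest in Htr2a at 4.53 (7.21 to 8.75).

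In the Amy, Htr1d was 8.22 CPM in the male vehicle library FTL_346 (others 5.24 to 6.32) and 11.8 in the male THC library FTL_352 (2.67 to 5.79), and Htr5a was 16.1 in the female THC library FTL_343 (18.5 to 19.7). In the PFC, Htr1b was 19.5 in the female vehicle library FTL_264 (11.3 to 14.0), Htr3a was 5.01 in the female THC library FTL_268 (3.49 to 3.93) and 6.40 in the male THC library FTL_283 (3.84 to 4.33), and Htr4 was 0.412 in the female THC library FTL_267 (0.983 to 1.19). Htr4 in the female DMS with THC was 5.66 in library FTL_293 (3.73 to 4.34).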

How the results depend on the processing

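No paired analysis was possible because the labels give each library its own number and groups share none. The count of called members stayed at 0 in 100 of 103 alternatives of the 10 THC comparisons. In the female Amy it was 2 with DESeq2 and 1, Htr6, without the 5 choroid plexus libraries (FDR 0.0375), and it ranged from 0 to 1 as each library was left out. All alternatives of the interaction, covariate, sex and region pair counts stayed within 1.5 times. In the female Amy the marker score as covariate reversed Htr1a to 0.25, Htr1b to -0.22 and Htr6 to -0.33. The score and THC had r = 0.894 there and cannot be told apart by that fit. Htr7 there was -0.28 with no filter (FDR 0.068), -0.30 with 4 groups in a fit (0.147), -0.19 without the choroid plexus libraries (0.165) and -0.29 with DESeq2 (0.0025). DESeq2 gave no adjusted p for 9 members in the male NAc. Differences between regions that were near 0 turned sign, with Htr6 between NAc and DMS at 0.0018 with no filter, Htr1a with vehicle libraries only at -0.052 (Amy and NAc), -0.19 (VTA and NAc) and -0.14 (VTA and Amy), and Htr7 between VTA and Amy at 0.0015 with DESeq2, 0.00087 with its size factors and 0.0094 within the table. Male NAc Htr7 was -0.39 without THC library FTL_331. Spearman's rho named 23 of the 60 genes of like pattern that Pearson's r named, and the cause was not tested. Low counts limit Htr1d in the PFC, Htr3a in the VTA and Htr4 in the PFC.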
